A study of Mus musculus with 14 samples.

Results

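The collagen chains expressed by mouse liver sinusoidal endothelial cells (LSECs) were followed through an acute toxic injury. All protein-coding genes of the GENCODE vM21 annotation whose symbol has the form Col, number, a, number were taken, without use of any measured value. This gave 44 genes among the 54524 in the count table. By structure, 11 encode fibrillar chains, 8 basement membrane chains, 9 fibril-associated chains, 6 microfibrillar chains and 4 transmembrane chains. The other 6 are Col7a1 (anchoring fibrils), Col8a1, Col8a2 and Col10a1 (short-chain networks), Col26a1 and Col28a1. Col15a1 and Col18a1, which encode basement membrane zone collagens with heparan or chondroitin sulfate chains, were counted with the basement membrane.

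RNA was sequenced from LSECs sorted from male Balb/c mice, labelled as 10 to 12 weeks old, while the methods of the study give a somewhat older range. Healthy mice received no injection (n = 4), so that no group received the mineral oil carrier alone. The other mice received 1 intraperitoneal injection of carbon tetrachloride (CCl4), 0.5 µL per g body weight in mineral oil, and were sampled after 1 day (n = 2), 3 days (n = 4) or 7 days (n = 4). CCl4 is turned into a radical inside hepatocytes around the central vein and kills them, and the liver then repairs the lesion. LSECs were sorted as CD32+ F4/80- cells, and cells with the ultraviolet autofluorescence of vitamin A were gated out because that signal marks stellate cells. By the methods of the study, CD45+ immune cells were gated out as well. The gate used CD32, a receptor encoded by Fcgr2b, so cells that lost it would have been left out of all groups. Each sample was a separate mouse.

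Collagens are trimers of alpha chains wound into a triple helix. Fibrillar collagens I, III and V form the cross-banded fibrils of scar tissue, collagen VI forms beaded microfilaments around cells, and fibril-associated collagens sit on the surface of fibrils. Collagen IV builds the sheet of basement membranes, either from the alpha 1 and alpha 2 chains found in most tissues or from the alpha 3, alpha 4 and alpha 5 chains known from the kidney glomerulus. LSECs are unusual endothelial cells: they are fenestrated, lack a continuous basement membrane, and face the space of Disse, where stellate cells lie. After injury, stellate cells that turn into myofibroblasts are the main known source of fibrillar collagen in the liver.

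Collagen IV genes lie in pairs that start next to each other and run in opposite directions. After CCl4, 2 of these pairs moved in opposite directions, so the promoter window of 1 gene of each is shown first. Col4a1 and Col4a2 (chromosome 8) overlap at their starts by 22 bases, and Col4a4 and Col4a3 (chromosome 1) are separated by 71 bases. The windows of Col13a1, the most abundant transmembrane chain, and of Col1a2, a fibrillar chain that rose, are given beside them. Each window is 300 bases of GRCm38.p6 from RefSeq, read 5′ to 3′ on the strand of the gene, from 250 bases before the start to 50 after it. The windows are chr8:11312555-11312854 (+ strand) for Col4a2, chr1:82586800-82587099 (- strand) for Col4a4, chr10:61979059-61979358 (- strand) for Col13a1 and chr6:4505368-4505667 (+ strand) for Col1a2. Capitals mark matches, on either strand, to the CCAAT box (CCAAT), the GC box (GGGCGG), the TATA box (TATAAA) and a CTC box (CCCTNCCCC).
Col4a2: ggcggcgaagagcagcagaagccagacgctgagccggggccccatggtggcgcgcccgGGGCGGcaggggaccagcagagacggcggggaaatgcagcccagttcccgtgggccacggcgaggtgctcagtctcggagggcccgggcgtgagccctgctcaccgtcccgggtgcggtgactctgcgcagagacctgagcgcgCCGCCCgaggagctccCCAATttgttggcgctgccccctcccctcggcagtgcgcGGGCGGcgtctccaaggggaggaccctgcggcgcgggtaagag
Col4a4: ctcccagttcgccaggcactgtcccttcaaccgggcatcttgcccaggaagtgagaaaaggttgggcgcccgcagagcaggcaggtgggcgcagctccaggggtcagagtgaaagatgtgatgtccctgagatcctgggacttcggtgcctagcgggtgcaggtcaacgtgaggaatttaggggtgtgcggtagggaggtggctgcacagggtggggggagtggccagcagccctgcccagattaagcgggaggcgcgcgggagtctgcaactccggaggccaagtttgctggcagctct
Col13a1: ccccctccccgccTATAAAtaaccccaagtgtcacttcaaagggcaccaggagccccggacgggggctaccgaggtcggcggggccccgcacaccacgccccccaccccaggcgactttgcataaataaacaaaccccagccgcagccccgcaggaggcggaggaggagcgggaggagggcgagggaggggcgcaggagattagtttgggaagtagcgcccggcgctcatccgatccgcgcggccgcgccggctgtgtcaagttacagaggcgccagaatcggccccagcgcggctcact
Col1a2: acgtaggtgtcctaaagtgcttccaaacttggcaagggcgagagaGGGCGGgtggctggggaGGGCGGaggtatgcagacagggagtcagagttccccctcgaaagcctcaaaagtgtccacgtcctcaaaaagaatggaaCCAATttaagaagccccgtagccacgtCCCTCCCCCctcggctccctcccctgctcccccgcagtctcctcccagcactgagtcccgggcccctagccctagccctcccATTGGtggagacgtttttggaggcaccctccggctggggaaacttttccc

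The Col4a2 window holds the annotated start of Col4a1 at its base 272, and the Col4a4 window holds the start of Col4a3 at its base 179. The Col4a2 window carried a CCAAT box 32 bases before the Col4a2 start and 3 GC boxes. The Col4a1 window, not printed, carried a CCAAT box 145 bases before the Col4a1 start and a GC box. The 4 motifs searched were not found in the Col4a4 window. Col1a2 carried 2 CCAAT boxes, 2 GC boxes and 1 CTC box, and Col13a1 a TATA box 237 bases before its start. Of the 44 chains, 35 had at least 1 window in the table, 38 windows in all. A GC box was found in 60.5% of these windows and in 35.7% of all 32851 promoter windows, a CCAAT box in 34.2% and 37.4%, a TATA box in 13.2% and 13.6%, and a CTC box in 13.2% and 9.5%. These are matches of letters, and binding was not measured.

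Total counts per sample ran from 46401496 to 103912264. Of the 44 chains, 43 passed the filter on low counts. The exception was Col9a1, which had 6 counts in healthy mouse 4 and was not tested. Among the samples, 2 stood apart before any comparison. Healthy mouse 4 had the highest summed level of 10 hepatocyte markers, 7977 counts per 1000000 (CPM) against 191.8 in the lowest healthy mouse. Day 3 mouse 4 had the fewest genes with any count, 22986 against up to 34768 in its group. Values without these 2 samples are given where they change a result. Other samples differed in other markers. The summed level of 8 Kupffer cell and macrophage markers was 175.3 CPM in healthy mouse 1 and 964 to 1339 CPM in the other healthy mice. The monocyte and neutrophil markers, which split the day 3 mice, are given below. The sorted cells expressed the defining LSEC markers in every sample, with a summed level of 10 genes (Stab1, Stab2, Clec4g, Fcgr2b and others) of 17750 to 21220 CPM in healthy mice and 10480 to 15600 CPM after CCl4. Fold changes are from edgeR's quasi-likelihood test on the counts, fitted to all 26626 genes that passed the filter, with Benjamini-Hochberg adjustment over these genes. A chain was called at an adjusted p under 0.05.

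In healthy LSECs, 3 chains made up most of the collagen mRNA. Per kilobase of exon, Col13a1 stood at 65.9 ± 8.64 CPM per kb (SD, n = 4), Col4a1 at 57.35 ± 8.18 and Col4a2 at 42.8 ± 5.38. Col13a1 encodes a transmembrane collagen of cell-matrix contacts. These chains took 36.6%, 31.9% and 23.8% of the summed level per kb of all collagen chains. The level of Col13a1 and that of Col4a1 differed by less than their combined spread. The next chains were far lower: Col17a1, the hemidesmosome collagen, stood at 1.68 ± 0.341 and Col3a1 at 1.55 ± 0.379 CPM per kb. Col18a1 stood at 1.30 ± 2.18, a mean that rested on healthy mouse 4, and Col27a1 at 1.27 ± 0.117 CPM per kb. Collagen chains together took 0.113% ± 0.00831 of the TMM-scaled library size in healthy mice, 0.301% ± 0.00805 on day 1 (n = 2), 0.295% ± 0.181 on day 3 (n = 4) and 0.361% ± 0.299 on day 7 (n = 4). The 4 healthy values ran from 0.104% to 0.124% and the day 3 values from 0.19% to 0.565%, without overlap. The day 7 values ran from 0.098% to 0.788% and overlapped with the healthy ones, and without day 7 mouse 2 their mean was 0.218%.

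The mix of classes changed with time. On the per kb scale, fibrillar chains took 3.1% ± 0.162 of the summed collagen level in healthy LSECs, 0.541% ± 0.14 on day 1, 21% ± 7.26 on day 3 and 38% ± 19.5 on day 7. The highest day 1 share (0.64%) was below the lowest healthy share (2.94%), and the lowest shares of day 3 (16%) and day 7 (19.8%) were above the highest healthy share (3.3%). Transmembrane chains, nearly all Col13a1, took 37.9% ± 4.55 in healthy LSECs and 33.7% ± 0.969 on day 1. They took 9.76% ± 1.59 on day 3 and 10.5% ± 6.5 on day 7, and the highest share after day 1 (18.5%) was below the lowest healthy share (33.9%). Basement membrane chains took 56.9% ± 4.48, 65.4% ± 0.792, 62.5% ± 5.58 and 41% ± 16.7 in the same order. Microfibrillar chains took 0.961% ± 0.0918 in healthy LSECs, 0.0935% ± 0.026 on day 1 and 6.55% ± 3.11 on day 7. When counts were not divided by exon length, basement membrane chains took 64.6%, 73.9%, 59.9% and 38.5%, so that the day 3 mean lay below the healthy one on that scale and above it per kb. Fibrillar chains then took 5.09%, 0.874%, 27% and 45.4%, and transmembrane chains 28.2%, 24.9%, 6.21% and 6.6%, in the same order. These shares are descriptions and were not tested.

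**Figure D1:**
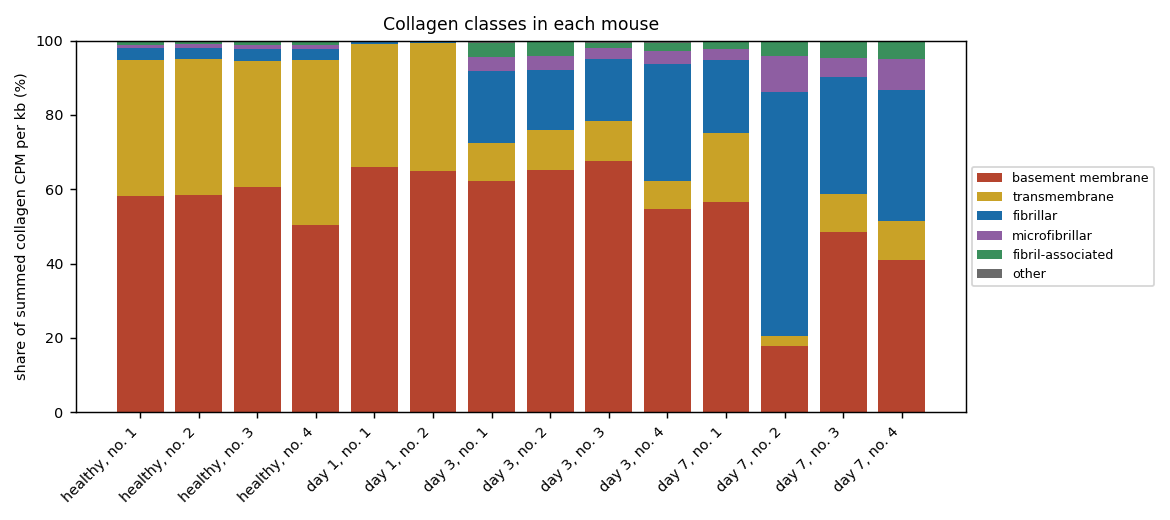
Share of the summed collagen level (CPM per kb of exon, in %) taken by each structural class, 1 bar per mouse. Red and gold, basement membrane and transmembrane chains, fill nearly the whole bar in healthy and day 1 mice, and blue, fibrillar chains, reaches 65.6% in day 7 mouse 2.

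The time course asked which chains changed within 1 day of the injury, which had changed at 3 and at 7 days, and how the days differed from each other. The comparisons with healthy mice share the same 4 healthy samples. In all, 20 of the 43 tested chains were called in at least 1 comparison with healthy. Shares over all genes are given below for each comparison, and not for calls pooled over comparisons. The 23 others were mostly scarce, 19 of them with a highest group mean under 5 CPM. In bulk samples, more or fewer cells of a type and more or less RNA per cell cannot be told apart.

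**Figure D2:**
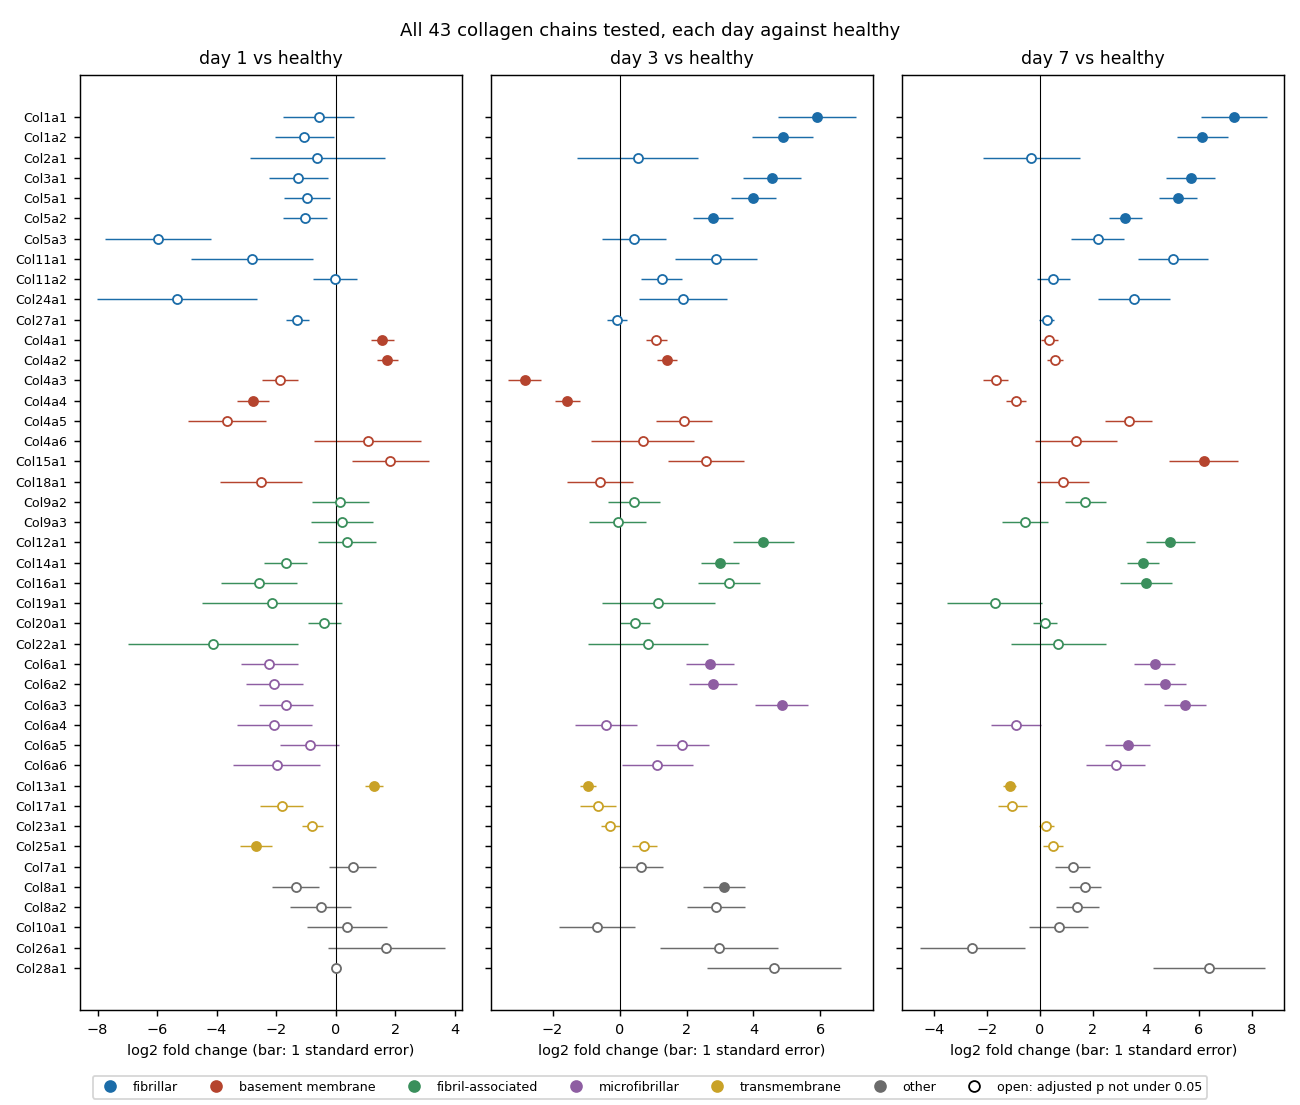
Log2 fold change of the 43 tested chains against healthy on day 1, day 3 and day 7, with bars of 1 standard error, coloured by class and filled where the adjusted p was under 0.05 (edgeR); Col28a1 has no bar on day 1, where both groups had 0 counts. Day 1 has 5 filled points, of which 3 lie to the right, and day 3 and day 7 have 15 and 14, mostly fibrillar and microfibrillar chains to the right.

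One day after CCl4, the chains that were most abundant in healthy LSECs rose, and many other chains stood lower. Of 43 tested chains 5 were called, 3 higher and 2 lower. Over all genes tested 4.06% were called, 2.42% higher and 1.64% lower, and over protein-coding genes 5.41%. Col4a1, Col4a2 and Col13a1 were higher, and Col4a4 and Col25a1 were lower. The median log2 fold change of the chains was -1.05, against -0.03 over all genes tested. By class the medians were -1.05 for fibrillar, -2.02 for microfibrillar, -1.03 for fibril-associated, -0.4 for basement membrane and -1.3 for transmembrane chains. In 20 chains both day 1 values lay below all healthy values, 46.5% of those tested, where 17.9% of all genes did so. Both day 1 values lay above all healthy values in 3 chains, where 20% of all genes did so. With 2 mice on day 1 these calls rest on both: without either day 1 mouse, when the remaining one was assumed to vary like the other groups, 0 chains were called. There were 3 without healthy mouse 1, 2 or 3, day 3 mouse 3 or day 7 mouse 3, and 9 without day 3 mouse 4. The cause was not tested.

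Col4a1 stood at 438, 398, 509 and 367 CPM in the 4 healthy mice and at 1284 and 1254 CPM on day 1. On day 3 it stood at 632, 666, 794 and 1587 CPM, and on day 7 at 275, 619, 596 and 703 CPM. The day 1 values were more than 2 times every healthy one, the day 3 values still lay above all healthy ones, and the day 7 values overlapped with them. The rise on day 1 was 1.57 ± 0.38 (log2 fold change ± SE, adjusted p = 0.0325, edgeR). On day 3 the difference from healthy, 1.10, missed the threshold (adjusted p = 0.0563, edgeR), and the day 1 call was also lost without any 1 of the healthy mice, day 3 mouse 3, day 7 mouse 3 or day 7 mouse 4, and with scaling by library size alone.

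Col4a2, the partner chain, followed the same order of days, with 298, 280, 320 and 236 CPM in healthy mice, 906 and 993 on day 1, 495, 554, 728 and 1260 on day 3, and 256, 480, 454 and 496 on day 7. Day 1 and day 3 values all lay above the healthy ones, and on day 7 mouse 1 fell within the healthy range. Col4a2 rose by 1.74 ± 0.34 on day 1 (adjusted p = 0.0102) and by 1.42 ± 0.29 on day 3 (adjusted p = 0.012, edgeR). Without healthy mouse 4 the day 3 call was lost (adjusted p = 0.0565). The 2 chains did not keep 1 ratio: Col4a1 over Col4a2, per kb, was 1.26 to 1.41 in healthy mice, 1.12 to 1.26 on day 1, 0.967 to 1.13 on day 3 and 0.955 to 1.26 on day 7. The day 3 ratios lay below all healthy ones.

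The other collagen IV pair moved the opposite way. Col4a3 stood at 4.28, 4.10, 3.04 and 4.96 CPM in healthy mice, 0.957 and 1.28 on day 1, 0.520, 0.953, 0.721 and 0.117 on day 3, and 1.14, 1.18, 1.24 and 1.58 on day 7. Col4a4 stood at 6.38, 3.58, 3.44 and 5.65 CPM in healthy mice and at 0.646 and 0.726 on day 1, then at 1.42, 1.41, 1.30 and 2.33 on day 3 and 1.22, 1.89, 3.64 and 3.43 on day 7. No injured mouse reached the healthy range of Col4a3 at any day, and Col4a4 reached it in 1 mouse of day 7. Col4a4 fell by 2.79 ± 0.54 on day 1 (adjusted p = 0.00995) and by 1.56 ± 0.38 on day 3 (adjusted p = 0.0275, edgeR). Col4a3 fell by 2.83 ± 0.49 on day 3 (adjusted p = 0.00567, edgeR), and this call held without any 1 of the 14 samples. The day 3 call of Col4a4 was lost without healthy mouse 1, healthy mouse 4, day 3 mouse 1 or day 3 mouse 2. Both genes were scarce beside Col4a1, and the level per kb in healthy mice was 0.411 CPM per kb for Col4a3 and 0.449 for Col4a4.

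Among the remaining collagen IV chains, Col4a5 stood at 0.187 to 0.509 CPM in healthy mice, 0 and 0.0598 on day 1, 0.808 to 3.26 on day 3 and 0.426 to 8.71 on day 7. The day 3 values all lay above the healthy ones, but the difference was not called at any day. Col4a6 had at most 13 counts in any sample. Col15a1, whose product bridges basement membranes to fibrils, stood at 0.0898, 0.0705, 0.187 and 0.160 CPM in healthy mice, 0.789 and 0.132 on day 1, 1.14, 1.16, 0.786 and 0 on day 3, and 1.14, 25.8, 5.05 and 5.47 on day 7. All day 7 values were above the healthy ones, and day 3 mouse 4 had none. Col15a1 rose by 6.19 ± 1.30 on day 7 (adjusted p = 0.0236, edgeR), and the call was lost without healthy mouse 1, 2 or 3 or without day 7 mouse 2.

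Col18a1, which encodes the precursor of endostatin and is also made by hepatocytes, gave a result that rested on 1 mouse. It stood at 0.908, 1.03, 2.48 and 32.1 CPM in healthy mice, 1.45 and 1.78 on day 1, 1.63, 4.02, 8.56 and 10.1 on day 3, and 9.39, 34.5, 6.92 and 15.8 on day 7. Healthy mouse 4, with 32.1 CPM, was also the mouse with the highest hepatocyte marker level among the healthy ones, and the part of hepatocyte RNA in this value was not tested. On day 7 the log2 fold change was 0.87 ± 0.99 (adjusted p = 0.662, edgeR) with all mice and 3.52 ± 0.76 without healthy mouse 4 (adjusted p = 0.0253, edgeR). With all mice, limma-voom with quality weights gave 2.87 ± 0.69 (adjusted p = 0.00959). The hepatocyte marker sum reached 6071 CPM on day 7 as well.

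Col13a1 was above healthy on day 1 and below it later. It stood at 295, 268, 290 and 360 CPM in healthy mice and at 710 and 776 on day 1. On day 3 it was at 118, 127, 153 and 237 CPM and on day 7 at 110, 108, 138 and 197 CPM. Both day 1 values were above, and all 8 later values below, every healthy value. Col13a1 rose by 1.29 ± 0.29 on day 1 (adjusted p = 0.0229), then stood below healthy on day 3 (log2 fold change -0.94 ± 0.25, adjusted p = 0.0374) and day 7 (-1.14 ± 0.25, adjusted p = 0.0286, edgeR). Between day 1 and day 3 it fell by 2.23 ± 0.29 (adjusted p = 0.00274, edgeR), and this call held in all 14 fits that left out 1 sample. The 3 calls against healthy were less stable. With scaling by library size alone none of them passed, and with 1 sample left out the calls held in 7, 5 and 4 of 14 fits for day 1, day 3 and day 7. The day 3 call was also lost when only healthy and day 3 mice were compared (adjusted p = 0.068). The log2 fold change kept its sign in all these fits. Removing healthy mouse 1, 2 or 3, either day 1 mouse or day 3 mouse 3 ended the call on all 3 days. Healthy mouse 4 ended it on day 3 and day 7, day 3 mouse 1 or 2 on day 3, day 7 mouse 3 on day 1 and day 7, and day 7 mouse 1 or 2 on day 7.

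The other transmembrane chains were scarce. Col25a1, better known from neurons, stood at 1.09, 0.576, 0.718 and 0.767 CPM in healthy mice, 0.144 and 0.0991 on day 1, 1.40, 1.48, 1.44 and 0.955 on day 3, and 0.634, 0.951, 1.08 and 1.75 on day 7. It fell by 2.69 ± 0.54 on day 1 (adjusted p = 0.0122, edgeR) and was back in or above the healthy range on day 3. The step from day 1 to day 3 was 3.43 ± 0.56 (adjusted p = 0.00884, edgeR). Col17a1 stood at 7.58 to 12.4 CPM in healthy mice, 3.24 and 2.47 on day 1, 2.06 to 16.2 on day 3 and 2.60 to 6.22 on day 7. The day 1 and day 7 values lay below all healthy values, without a call. Col23a1 stood at 1.88 to 3.43 CPM in healthy mice, 1.75 and 1.68 on day 1 and 2.20 to 4.40 CPM later, without a call.

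On day 3, 5 of 11 fibrillar, 3 of 6 microfibrillar and 2 of 8 tested fibril-associated chains were higher. Of 43 chains 15 were called, 12 higher and 3 lower. Over all genes tested 7.19% were called, 4.62% higher and 2.58% lower, and over protein-coding genes 9.7%. The higher ones were Col1a1, Col1a2, Col3a1, Col5a1, Col5a2, Col6a1, Col6a2, Col6a3, Col12a1, Col14a1, Col8a1 and Col4a2, and the lower ones Col4a3, Col4a4 and Col13a1. The median log2 fold change was 1.26 over the chains and 0.18 over all genes. It was 2.79 over fibrillar, 2.29 over microfibrillar, 1.01 over fibril-associated, 0.9 over basement membrane and -0.46 over transmembrane chains. All 4 day 3 values lay above all healthy values in 15 chains, where 7.53% of all genes did so. Without healthy mouse 4, 9 chains were called. The size of several rises rested on day 3 mouse 4. Without it the log2 fold change was 4.39 for Col1a1, 3.84 for Col1a2, 3.49 for Col3a1, 2.09 for Col5a2 and 2.51 for Col8a1, all still called, and 2.04 for Col6a1 and 2.03 for Col6a2, no longer called. Without both that mouse and healthy mouse 4, the calls of Col5a2, Col6a1 and Col6a2 were lost.

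On day 7, 14 of 43 chains were called, 13 higher and 1 lower. Over all genes tested 3.18% were called, 2.19% higher and 0.992% lower, and over protein-coding genes 4.15%. The 11 chains called on both days were Col1a1, Col1a2, Col3a1, Col5a1, Col5a2, Col6a1, Col6a2, Col6a3, Col12a1, Col14a1 and, lower, Col13a1. Col6a5, Col15a1 and Col16a1 were called on day 7 and not on day 3, a difference that was not called between the days. The median log2 fold change was 1.42 over the chains, 3.56 over fibrillar and 3.82 over microfibrillar chains, against 0.02 over all genes. All day 7 values lay above all healthy values in 14 chains, where 8.72% of all genes did so. Without healthy mouse 1, 2 or 3, 7, 9 and 9 chains were called. Day 7 mouse 2 raised many of these values. Without it the log2 fold change was 5.88 for Col1a1, 4.75 for Col1a2, 4.53 for Col3a1, 4.06 for Col5a1, 2.21 for Col5a2, 3.38 for Col6a1, 3.73 for Col6a2, 4.34 for Col6a3 and 3.54 for Col12a1, all still called. For Col6a5 (2.29), Col15a1 (4.92) and Col16a1 (3.14) the call was lost. Between day 7 and day 3, 0 chains were called by edgeR, where 1.77% of all genes were, and 8 had an unadjusted p under 0.05. DESeq2 called 2 and limma-voom 3. No share over all genes is given for the unadjusted p, DESeq2 or limma-voom. The 8, 2 and 3 chains are therefore not read as a difference between the days. From day 1 to day 3, 11 chains were called, 10 higher and 1 lower, where 2.54% of all genes were, 1.57% higher and 0.969% lower.

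**Figure D3:**
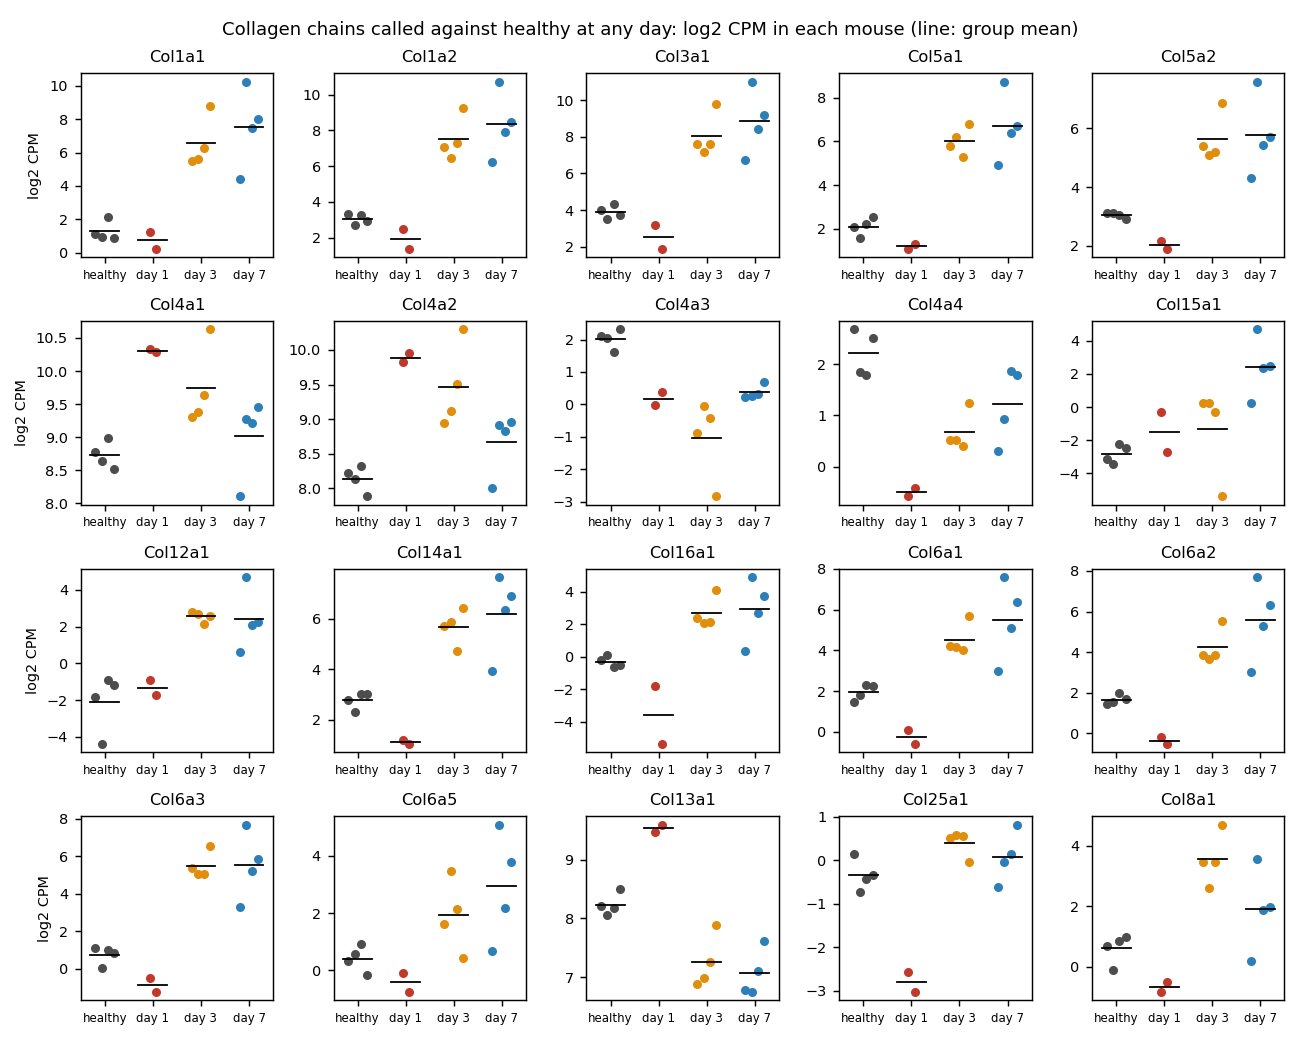
Log2 CPM of the 20 chains called against healthy on at least 1 day, 1 panel per chain, 1 point per mouse and a line at the group mean, with a scale of its own in each panel. Col4a1, Col4a2 and Col13a1 are highest or near highest on day 1, Col4a3 and Col4a4 are highest in healthy mice, and the fibrillar and collagen VI chains are highest on day 3 and day 7, with day 3 mouse 4 and day 7 mouse 2 on top in most panels.

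Collagen I is the main fibril collagen. Col1a1, its alpha 1 chain and the called chain with the largest log2 fold change on both later days, stood at 2.17, 1.90, 4.41 and 1.82 CPM in healthy mice, 2.32 and 1.16 on day 1, 45.7, 48.2, 77.0 and 443 on day 3, and 21.3, 1214, 174 and 260 on day 7. Col1a2, its alpha 2 chain, stood at 9.91, 6.54, 9.45 and 7.60 CPM in healthy mice, 5.53 and 2.57 on day 1, 136, 86.9, 158 and 607 on day 3, and 75.6, 1691, 241 and 358 on day 7. Both were above healthy in all 8 mice of day 3 and day 7, and day 7 mouse 2 was highest and day 7 mouse 1 lowest of the later samples. Col1a1 rose by 5.90 ± 1.16 on day 3 (adjusted p = 0.00971) and by 7.34 ± 1.24 on day 7 (adjusted p = 0.00961, edgeR). Col1a2 rose by 4.88 ± 0.91 on day 3 (adjusted p = 0.00764) and by 6.14 ± 0.97 on day 7 (adjusted p = 0.00752, edgeR).

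Col3a1, the chain of collagen III, was the most abundant fibrillar chain per kb in the healthy mice. Its level stood at 16.1, 11.5, 19.96 and 13.1 CPM there, 9.08 and 3.65 on day 1, 198, 147, 197 and 879 on day 3, and 107, 2094, 344 and 599 on day 7. Day 1 values lay below and all later values above the healthy range. Col3a1 rose by 4.55 ± 0.87 on day 3 (adjusted p = 0.00817) and by 5.70 ± 0.92 on day 7 (adjusted p = 0.00779, edgeR). Per kb, Col3a1 over Col1a1 was 3.03 to 4.97 in healthy mice, 1.33 to 2.91 on day 3 and 1.15 to 3.36 on day 7, so that Col3a1 stayed above Col1a1 in every mouse. Against Col4a1 it was 0.0219 to 0.0298 per kb in healthy mice, 0.00222 and 0.00538 on day 1, 0.167 to 0.421 on day 3 and 0.296 to 2.57 on day 7.

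Collagen V, which sets fibril diameter, followed the same days. Col5a1 stood at 4.16, 2.97, 4.56 and 5.76 CPM in healthy mice, 2.08 and 2.41 on day 1, 55.0, 73.2, 38.6 and 112 on day 3, and 30.2, 430, 83.2 and 105 on day 7. It rose by 4.00 ± 0.67 on day 3 (adjusted p = 0.00485) and by 5.21 ± 0.71 on day 7 (adjusted p = 0.00481, edgeR). Col5a2 stood at 8.56, 8.73, 8.29 and 7.54 CPM in healthy mice, 4.41 and 3.70 on day 1, 41.7, 33.8, 36.7 and 116 on day 3, and 19.8, 194, 43.5 and 51.9 on day 7. For both chains the day 1 values lay below, and the day 3 and day 7 values above, the healthy range. Col5a2 rose by 2.79 ± 0.61 on day 3 (adjusted p = 0.0157) and by 3.22 ± 0.62 on day 7 (adjusted p = 0.0163, edgeR). Its day 3 call was lost without healthy mouse 4 (adjusted p = 0.0501) and its day 7 call without healthy mouse 1, 2 or 3. The balance of both chains shifted, with Col5a1 over Col5a2 per kb at 0.385 to 0.862 in healthy mice, 1.09 to 2.45 on day 3 and 1.73 to 2.51 on day 7.

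The other 6 fibrillar genes gave no call. Col27a1, a cartilage-type fibrillar chain, stood at 14.5 to 18.2 CPM in healthy mice, at 5.91 and 7.66 on day 1, and at 9.20 to 24.2 CPM later. Its day 1 values lay below all healthy ones. Col5a3 stood at 0.341 to 3.18 CPM in healthy mice and reached 14.5 CPM in day 7 mouse 2. Col11a1 stood at 0.0118 to 0.103 CPM in healthy mice and at 0.104 to 4.59 CPM on day 7, without overlap and without a call. Col2a1, the cartilage collagen, had at most 14 counts in any sample.

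Collagen VI chains Col6a1, Col6a2 and Col6a3, which assemble with each other, rose on both days. Col6a3 stood at 2.15, 1.02, 1.99 and 1.79 CPM in healthy mice, 0.694 and 0.407 on day 1, 41.0, 32.8, 32.9 and 91.9 on day 3, and 9.86, 206, 37.4 and 58.1 on day 7. Col6a1 stood at 2.77, 3.501, 4.84 and 4.81 CPM in healthy mice, 1.05 and 0.638 on day 1, 18.4, 18.2, 16.0 and 50.8 on day 3, and 8.01, 195, 33.7 and 82.8 on day 7. In both, no mouse of another day fell within the healthy range. Col6a3 rose by 4.84 ± 0.78 on day 3 (adjusted p = 0.00382) and by 5.48 ± 0.80 on day 7 (adjusted p = 0.00514, edgeR), and Col6a1 by 2.70 ± 0.72 (adjusted p = 0.0387) and 4.33 ± 0.78 (adjusted p = 0.0121, edgeR). Col6a2 rose by 2.79 ± 0.73 on day 3 (adjusted p = 0.036) and by 4.72 ± 0.80 on day 7 (adjusted p = 0.00961, edgeR), from 2.68 to 3.95 CPM in healthy mice to 12.6 to 46.8 and 8.19 to 209 CPM. The day 3 calls of Col6a1 and Col6a2 were near the threshold and held in 2 and 4 of 14 fits with 1 sample left out. Leaving out any healthy mouse, either day 1 mouse, day 3 mouse 1, 3 or 4, or day 7 mouse 4 ended both calls, and leaving out day 3 mouse 2 or day 7 mouse 3 ended that of Col6a1. The day 7 call of Col6a1 was lost without healthy mouse 1.

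The balance within collagen VI was also measured. Per kb, Col6a3 over Col6a1 was 0.107 to 0.283 in healthy mice, 0.234 and 0.241 on day 1, 0.659 to 0.815 on day 3 and 0.257 to 0.451 on day 7. The day 3 ratios lay above those of all other mice. The ratio of Col6a1 to Col6a2 moved less, from 1.97 to 2.80 in healthy mice to 2.06 to 2.75 on day 3 and 1.66 to 1.97 on day 7. Col6a5, an alternative to the alpha 3 chain, stood at 1.23, 1.45, 1.88 and 0.870 CPM in healthy mice and at 1.58, 34.0, 4.54 and 13.8 CPM on day 7. Day 7 mouse 1 fell within the healthy range. The rise of 3.31 ± 0.84 (adjusted p = 0.0491, edgeR) was at the threshold and held in 3 of 14 fits with 1 sample left out, those without day 3 mouse 2, day 3 mouse 4 or day 7 mouse 1. It was also lost with no filter on low counts. Col6a4 and Col6a6 gave no call and were at 0 counts in day 3 mouse 4.

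Among the fibril-associated chains, Col14a1, which binds collagen I fibrils, was the most abundant. It stood at 6.84, 4.98, 8.01 and 8.01 CPM in healthy mice, 2.30 and 2.04 on day 1, 52.0, 57.7, 26.3 and 86.6 on day 3, and 15.1, 202, 80.4 and 118 on day 7. Day 1 values were below and later values above the healthy range. Col14a1 rose by 3.00 ± 0.58 on day 3 (adjusted p = 0.00906) and by 3.90 ± 0.61 on day 7 (adjusted p = 0.00707, edgeR). Col12a1, a related chain of tendon and other dense tissue, was close to absent in healthy mice, at 0.260, 0.0235, 0.499 and 0.412 CPM, and in day 1 mice, at 0.502 and 0.275 CPM. On day 3 it stood at 6.93, 6.40, 4.45 and 5.91 CPM and on day 7 at 1.52, 26.1, 4.19 and 4.76 CPM, all above the healthy and day 1 values. The rise was 4.30 ± 0.90 on day 3 (adjusted p = 0.0129) and 4.93 ± 0.92 on day 7 (adjusted p = 0.0145, edgeR), the latter lost without healthy mouse 1.

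Col16a1 stood at 0.838, 1.03, 0.603 and 0.675 CPM in healthy mice, 0.263 and 0 on day 1, 5.06, 4.24, 4.28 and 16.8 on day 3, and 1.26, 29.9, 6.48 and 13.2 on day 7. All later values lay above the healthy range. It rose by 4.01 ± 0.97 on day 7 (adjusted p = 0.0416, edgeR), missed the threshold on day 3 with 3.27 (adjusted p = 0.0521), and kept the day 7 call in 5 of 14 fits with 1 sample left out. Any healthy mouse, day 3 mouse 2 or 3, and day 7 mouse 2, 3 or 4 ended that call when left out. Col8a1, a short-chain collagen of the vessel wall, stood at 1.59, 0.893, 1.78 and 1.97 CPM in healthy mice, 0.538 and 0.682 on day 1, 11.04, 6.07, 11.1 and 26.0 on day 3, and 1.10, 11.8, 3.66 and 3.88 on day 7. It was above healthy in all day 3 mice and overlapped on day 7, and rose by 3.12 ± 0.63 on day 3 (adjusted p = 0.0117, edgeR). Of the chains not named so far, those of collagen IX, Col7a1, Col8a2, Col10a1, Col11a2, Col19a1, Col20a1, Col22a1, Col24a1, Col26a1 and Col28a1 gave no call against healthy.

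The contrast between day 1 and day 3 was itself tested, and 10 chains stood higher on day 3. Col6a3 was higher by 6.49 (adjusted p = 0.0124), Col1a2 by 5.93 (adjusted p = 0.031) and Col3a1 by 5.80 (adjusted p = 0.0288) on the log2 scale (edgeR). Smaller steps were seen for Col5a1 (4.96), Col6a1 (4.94), Col6a2 (4.85), Col14a1 (4.68), Col8a1 (4.47) and Col5a2 (3.82). Without either day 1 mouse 1 chain, Col13a1, was called. Day 7 mouse 4 ended the calls of Col5a2, Col6a1 and Col6a2 when left out, day 3 mouse 3 those of Col5a2 and Col6a2, and healthy mouse 1, 2 or 3 that of Col6a2. With only day 1 and day 3 mice compared, the calls of Col1a2, Col3a1, Col5a2, Col6a2, Col8a1 and Col25a1 were lost, and with limma-voom that of Col6a2. Without day 3 mouse 4 the step was 4.91 for Col1a2, 4.76 for Col3a1, 3.14 for Col5a2, 4.30 for Col6a1, 4.11 for Col6a2 and 3.88 for Col8a1, all still called, and without day 1 mouse 1 it was 6.56 for Col1a2 and 6.57 for Col3a1, not called.

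Genes that make, process or bind collagen were counted in the same way, beside shares over all genes of 2.42% higher on day 1, 4.62% on day 3 and 2.19% on day 7, and of 1.64% lower on day 1. Of 22 genes of collagen synthesis and secretion, 1 was higher on day 1, 3 on day 3 and 2 on day 7, and 1 of 22 is near the day 1 share over all genes. Fkbp10, a prolyl isomerase chaperone of procollagen, rose by 3.81 ± 0.68 on day 3 (adjusted p = 0.00644) and by 4.01 ± 0.69 on day 7 (adjusted p = 0.00981, edgeR). Plod2, the lysyl hydroxylase for telopeptide crosslinks, rose by 2.35 ± 0.56 and 3.08 ± 0.57, and Fkbp14 was the gene higher on day 1 (2.25 ± 0.25, adjusted p = 0.000319, edgeR). P4ha1, a prolyl hydroxylase subunit, stood at 98.8 to 151 CPM in healthy mice, 97.1 to 128 on day 3 and 79.1 to 210 on day 7. The median log2 fold change of the list was 0.24 on day 3 and -0.13 on day 7, against 0.18 and 0.02 over all genes.

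Of 12 tested genes of procollagen processing and crosslinking, 5 were higher on day 3 and 4 on day 7, where 4.62% and 2.19% of all genes were. Lox, the lysyl oxidase that starts crosslinks, stood at 0.0936 to 0.376 CPM in healthy mice, 0.813 and 0.308 on day 1, 4.56 to 17.1 on day 3 and 2.98 to 28.4 on day 7. It rose by 5.07 ± 0.79 on day 3 (adjusted p = 0.00317) and by 5.28 ± 0.80 on day 7 (adjusted p = 0.006, edgeR). Adamts2, the procollagen N-proteinase, rose by 3.54 ± 0.73 and 4.23 ± 0.75, and Loxl2 by 1.32 ± 0.31 and 1.35 ± 0.31. Pcolce, an enhancer of C-propeptide removal, was higher on day 3 (1.20 ± 0.22, adjusted p = 0.00699, edgeR). The medians of the list were 1.33 and 1.24, against 0.18 and 0.02 over all genes.

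Of 11 collagen receptors, 3 were higher on day 3 and 3 on day 7, where 4.62% and 2.19% of all genes were. On day 1 Itgb1, the shared integrin beta 1 chain, was higher (0.84 ± 0.19, adjusted p = 0.0229, edgeR) and Adgrg6 lower (-1.99 ± 0.39, adjusted p = 0.0108, edgeR). Over all genes 2.42% were higher and 1.64% lower on that day. Ddr2, a tyrosine kinase receptor for fibrillar collagen, rose by 2.48 ± 0.59 and 2.93 ± 0.60. Mrc2, which takes up collagen fragments, rose by 4.34 ± 0.76 on day 3 and 4.90 ± 0.78 on day 7, from 0.198 to 0.492 CPM in healthy mice. The integrin chain Itga1, a collagen IV receptor, stood at 337 to 448 CPM in healthy mice and 304 to 487 CPM after CCl4.

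Of 16 basement membrane partners, 2 were lower on day 1, 4 were higher on day 3 and 3 on day 7. Over all genes 1.64% were lower on day 1, and 4.62% and 2.19% were higher on day 3 and day 7. On day 1, when Col4a1 and Col4a2 were at their height, Lama4, the laminin chain of vessels, was lower (-1.86 ± 0.41, adjusted p = 0.0202, edgeR) and stood at 43.9 and 79.9 CPM against 195 to 264 in healthy mice. Nid1, the nidogen that links laminin and collagen IV, stood at 257 to 331 CPM in healthy mice and 377 and 420 on day 1. Both day 1 values lay above all healthy ones, as they did in 20% of all genes, and Nid1 was not called. Lamb1, Lama2 and Lama1 were higher on day 3 (by 2.95, 3.81 and 4.31) and on day 7 (by 3.40, 4.13 and 4.23), from low levels. Sparc, a collagen-binding glycoprotein, rose by 0.75 ± 0.16 on day 3 (adjusted p = 0.0161, edgeR) and stood at 2440 to 2940 CPM in healthy mice.

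Markers of other cell types moved beside the fibrillar chains. Of 15 stellate cell markers, 1 was higher on day 1 (Hgf), 9 on day 3 and 11 on day 7, where 2.42%, 4.62% and 2.19% of all genes were. None of the 15 was at 0 in a day 3 or day 7 sample. Ngfr was at 0 in healthy mice 1 and 2 and in day 1 mouse 1. The summed level of the 15 was 189.9 to 338.8 CPM in healthy mice, 302 and 385.7 on day 1, 518.1 to 1537 on day 3 and 327.5 to 2668 on day 7. Hgf alone stood at 143 and 254 CPM on day 1, against 26 to 33.9 CPM in healthy mice. The median log2 fold change of the list on day 1 was -0.66, against -0.03 over all genes. Its mean log2 CPM on day 1 (1.62 and 1.47) lay below every healthy value (1.7 to 2.71). Lrat, the retinol-esterifying enzyme of stellate cells, rose by 3.41 ± 0.73 on day 3 (adjusted p = 0.0147) and by 3.74 ± 0.74 on day 7 (adjusted p = 0.0188, edgeR). Of 8 myofibroblast markers, 1 was higher on day 1, 6 on day 3 and 4 on day 7, with sums of 19.36 to 28.1, 78.68 to 113.2, 145.9 to 297.5 and 63.67 to 380 CPM in the order of the groups. Cnn1 was at 0 in day 3 mouse 4 and day 7 mouse 1. The part of stellate cell or myofibroblast RNA in the fibrillar, fibril-associated and collagen VI values was not tested.

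The order of the mice was the same for the fibrillar and stellate marker sums on day 7 and not on day 3. On day 7 the fibrillar sum was 5669, 1402, 913.4 and 267.1 CPM in mice 2, 4, 3 and 1, and the stellate marker sum was 2668, 1746, 1016 and 327.5 CPM in that order. On day 3 the fibrillar sum was highest in mouse 4, with 2191 CPM against 404.1 to 526.2 in the others, while its stellate marker sum, 808.9 CPM, was below the 1537 and 1479 CPM of mice 1 and 2. The portal fibroblast marker sum had the order of the fibrillar sum on both days. It was 224.3, 144.2, 98.72 and 87.09 CPM in day 3 mice 4, 3, 1 and 2. On day 7 it was 216.2, 158.9, 110.6 and 92.13 CPM in mice 2, 4, 3 and 1. The day 3 order of this sum rested on Cd34, which the study also lists for damaged LSECs or endothelial cells. Cd34 alone stood at 119, 108, 58.6 and 42.8 CPM in day 3 mice 4, 3, 1 and 2. The mean log2 CPM of the list was 2.81, 2.04, 1.86 and 2.29 in these mice, not the fibrillar order. The myofibroblast marker sum had the order of the fibrillar sum on day 7 and not on day 3. Their part in the fibrillar values was not tested. In day 7 mouse 1 the stellate sum lay within the healthy range, and its fibrillar sum of 267.1 CPM was above the healthy range of 51.26 to 65.08 CPM. For Col4a1, Col4a2 and Col13a1 on day 1, the LSEC markers moved in both directions: Lyve1 was higher by 3.05 ± 0.26, and Kdr and Mrc1 were lower by log2 fold changes of -1.71 and -1.50.

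**Figure D4:**
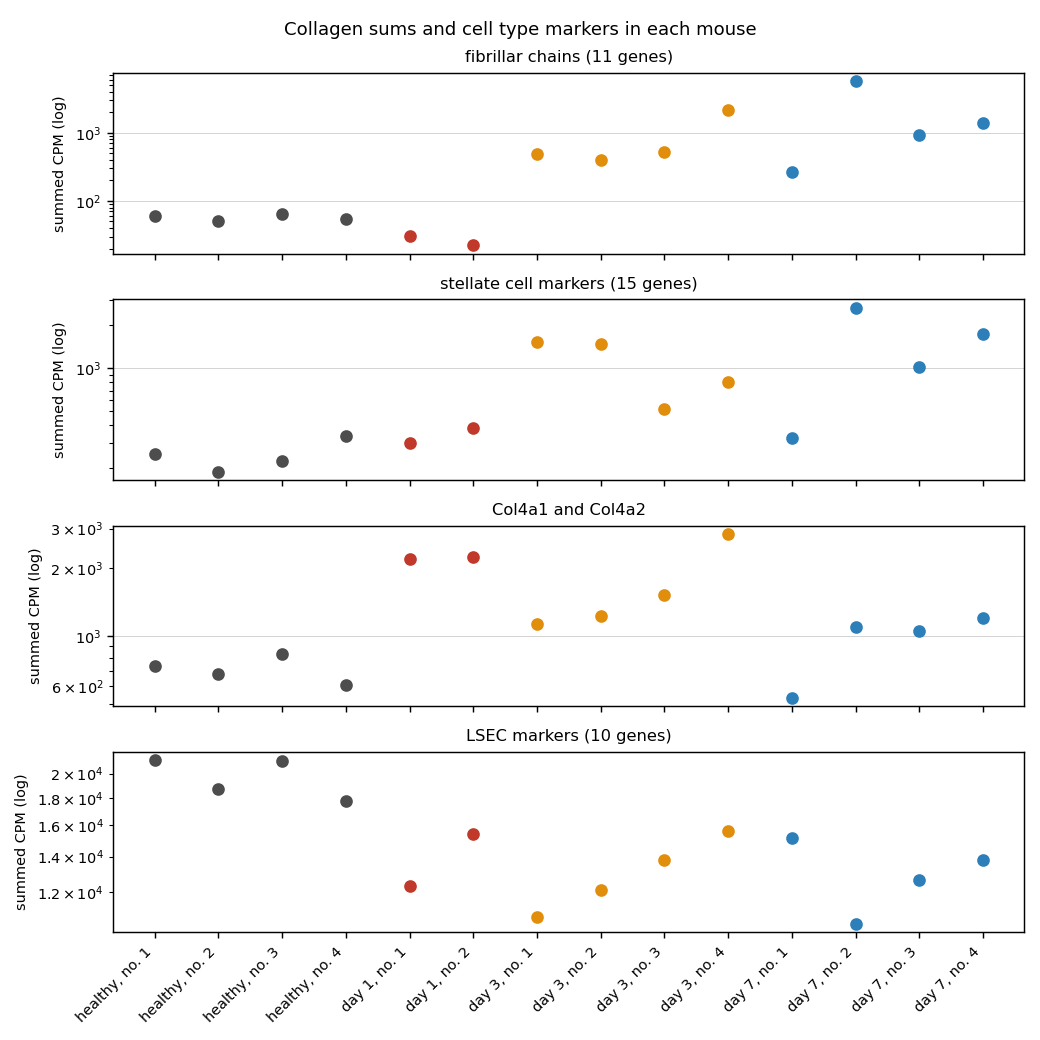
Summed CPM (log axis) of the 11 fibrillar chains, 15 stellate cell markers, Col4a1 with Col4a2, and 10 LSEC markers, 1 point per mouse and coloured by group. Fibrillar sums on day 3 and day 7 (267.1 CPM and more) lie above those of healthy mice, and the LSEC marker sum is highest in healthy mice.

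The remaining marker lists were counted in the same way, beside the same shares over all genes. In the order day 1, day 3 and day 7, portal fibroblast markers had at most 2 of 9 higher, and Kupffer cell and macrophage, mesothelial, cholangiocyte, smooth muscle and hepatocyte markers at most 1 each. Monocyte and neutrophil markers had 6, 5 and 1 of 10 higher, with a sum of 3120 and 7164 CPM on day 1 against 43.52 to 236.4 in healthy mice. The day 3 mice were split, with sums of 5256 and 3018 CPM in mice 1 and 2. In day 3 mice 3 and 4 the sums, 180.2 and 114.7 CPM, lay within the healthy range. Pan-endothelial markers had 1 of 8 higher on day 1 and 2 lower on each later day, large-vessel markers 1 higher and 1 lower on day 1 and 2 each way on day 3, and LSEC markers 1 higher and 2 lower on day 1 and on day 3. Their part in the collagen values was not tested.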

How the data were processed

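RNA sequencing of LSECs from 14 mice in 4 groups was used. The labels give each sample its group. The authors used STAR for mapping, with GRCm38.p6 as the genome, and StringTie for assembly. The deposited values are raw counts of reads per gene. The annotation release, the strand setting and the step to whole counts are not given in the sources used here, and the sequencing is described both as paired-end and as single-end. Counts were filtered with filterByExpr (minimum count 10, minimum total 15), scaled with TMM and tested in edgeR 4.0.16 (R 4.3.3) in 1 model of 4 group means. DESeq2 1.42.0 and limma 3.58.1 (voom) were alternatives. The test was checked on simulated data.

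Total counts, 46401496 to 103912264 per sample, set the precision of scarce chains, and fewer than 3 counts was treated as not detected, a limit on counting error only. CPM used TMM-scaled library sizes, and levels per kb used merged exons of GENCODE vM21. Log2 CPM used a prior count of 2. Exons of 13 chains share bases with another gene, at most 6.07% of their length. Replicate numbers were not used to pair samples. Chains called against healthy are named with values, and of the other lists the most abundant called genes. P4ha1, Itga1, Nid1 and the scarce chains were named after their values were seen. Classes, chains, 16 gene lists and alternatives were chosen with earlier results of these data known.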

Additional observations from a re-analysis of the deposited data

Results flagged for a closer look

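Within groups of 4 mice, 118 groups of a chain with at least 10 counts in 1 mouse were examined for a value far from the other 3, and 26 had one. For independent values with a normal spread, chance would give about 1 in 20 groups. The CPM were not transformed and the groups share the same mice, so the 26 cannot be set against that rate. Of the 26, 15 were in day 3 mouse 4, the sample with the fewest genes with any count. There the highest values of the group were Col1a1 at 443 CPM, Col1a2 at 607, Col3a1 at 879, Col4a1 at 1587, Col4a4 at 2.33 and Col4a5 at 3.26 CPM. The same mouse was highest for Col5a2 (116 CPM), Col5a3 (4.11), Col6a1 (50.8), Col6a2 (46.8), Col6a3 (91.9), Col8a2 (6.01), Col11a2 (5.65) and Col16a1 (16.8), and lowest for Col25a1 (0.955). In healthy mouse 4, Col18a1 (32.1 CPM) and Col5a3 (3.18) were high and Col23a1 (1.88) low.

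Single values stood apart elsewhere too. Healthy mouse 3 was high for Col1a1 (4.41 CPM) and Col10a1 (0.25), and healthy mouse 1 for Col9a3 (0.778). Day 3 mouse 2 was high for Col2a1 (0.238), and day 3 mouse 3 was high for Col23a1 (3.0) and low for Col9a2 (0.0983). Day 7 mouse 2 was high for Col5a3 (14.5) and Col12a1 (26.1).

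The difference from healthy on day 3 differed from that on day 1 in 11 chains, by edgeR's test of day 3 against day 1. On the log2 scale it was higher for Col6a3 (6.49), Col1a2 (5.93), Col3a1 (5.80), Col5a1 (4.96), Col6a1 (4.94), Col6a2 (4.85), Col14a1 (4.68), Col8a1 (4.47), Col5a2 (3.82) and Col25a1 (3.43), and lower for Col13a1 (-2.23). Col25a1 and Col13a1 are the members of this group whose day 1 value was itself called against healthy.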

How the results depend on the processing

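No log2 fold change of a called chain changed sign under any alternative. Against healthy on day 1, 5 chains were called, 9 with DESeq2, 9 with limma-voom, 3 with scaling by library size alone, 12 with only the 2 groups compared and 9 without both healthy mouse 4 and day 3 mouse 4, an alternative chosen after seeing the data. On day 7 limma-voom called 25 in place of 14. From day 1 to day 3, 11 chains were called, 21 with DESeq2 and 6 with only those groups. Between day 7 and day 3 the count was 0, and 2 with DESeq2, 3 with limma-voom and 1 without both samples. With 1 sample left out in turn, the counts ranged from 0 to 9 on day 1, from 9 to 16 on day 3 and from 7 to 18 on day 7 against healthy, from 1 to 14 between day 3 and day 1, and from 0 to 0 between day 7 and day 3. The lowest counts came without either day 1 mouse for day 1, without healthy mouse 4 for day 3 and without healthy mouse 1 for day 7. The share called over all genes under each alternative is not given here. A change in these counts is therefore not read as particular to the collagen chains. The causes were not tested. The median over all genes moved by less than 0.1 between scalings.

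A fit with the replicate number as a block called 4, 13 and 10 chains on day 1, day 3 and day 7 against healthy, 5 between day 3 and day 1 and 0 between day 7 and day 3. Deviations of same-numbered mice correlated at -0.232 to 0.0962 over 18 pairs, so that no strong shared effect of the number was seen. These correlations cannot show whether mice were matched by number.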
